A study of Mus musculus with 3 samples.

Results

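CCGG sites that gained methylation reads by day 7 of mouse embryonic stem cell differentiation, with and without an LSD1 inhibitor, are described here. They were selected on read counts: a site had no row in the list of undifferentiated cells and 10 or more reads in both day 7 lists. The rule was met by 23206 of the 969569 autosomal CCGG sites listed in at least 1 of the 3 lists, which is 2.39% of them. With day 7 counts thinned to the number of mapped reads of the undifferentiated library, which does not equalise reads at CCGG sites, 12390 sites met it. Because the counts defined the sites, the counts themselves are given as a description and carry no test.

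The cells were E14Tg2A embryonic stem cells, an established mouse line. They were sampled undifferentiated (day 0), after 7 days of differentiation without inhibitor (untreated), and after 7 days with 3 mM pargyline (treated), an inhibitor of the histone demethylase LSD1. According to the paper, differentiation was started by removing leukemia inhibitory factor and then adding retinoic acid. Each condition was 1 library, so no difference between conditions has a replicate check, and intervals below are 95% Wilson intervals that cover counting error only. Reads copied by PCR carried no molecular identifiers and are not independent molecules.

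MethylRAD uses FspEI, an enzyme that cuts at a fixed distance on both sides of a methylated cytosine and so releases a short fragment centred on the methylated CCGG. It also cuts at hydroxymethylated cytosine, and a CCGG inside the fragment of a modified neighbour can be listed with it, while unmodified copies with no such neighbour leave no fragment. During differentiation the de novo methyltransferases DNMT3A and DNMT3B methylate promoters and enhancers of pluripotency and germline genes, while most CpG islands are kept free of methylation.

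The undifferentiated library corresponded to 50959931 mapped reads, the untreated library to 73712891 and the treated library to 67235309. Each list began at 5 reads, so a site without an undifferentiated row could have had up to 4 reads there. Autosomal CCGG sites held 59.7% of mapped reads in the undifferentiated library, 47.9% in the untreated and 36.9% in the treated library, so RPM (reads per 1000000 mapped reads) at the median CCGG site was lowest in the treated library. At the 703057 sites listed in all 3 lists, the median log2 ratio of untreated to undifferentiated RPM was -0.24 and that of treated to undifferentiated was -0.62.

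The gained sites were shallow. Their median count was 16 in the untreated library (quartiles 12 and 22, highest 126) and 18 in the treated library (quartiles 13 and 27, highest 598). Sites listed in all 3 lists had medians of 31 reads undifferentiated, 37 untreated and 28 treated. The gained sites were thus less deep than the comparison sites in both day 7 libraries, and the gap was wider in the untreated library. The median log2 ratio of treated to untreated RPM was 0.30 at gained sites against -0.37 at sites in all 3 lists, a difference of 0.67. Sites in all 3 lists with under 10 undifferentiated reads and 10 or more in both day 7 libraries had a median of 0.13.

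Just inside the threshold, 3632 gained sites had 10 reads as the lower of their day 7 counts, and 3090 had 11. Just outside it, 4505 sites without an undifferentiated row had 9 reads as the lower count and 5623 had 8. On the undifferentiated side, 7860 sites with 10 or more reads in both day 7 libraries had 5 undifferentiated reads and so missed the rule by 1 read. Counts of this size are imprecise: the exact Poisson 95% interval of 10 reads runs from 4.8 to 18.4, and that of 4 reads reaches 10.2, which is 0.201 RPM in the undifferentiated library. Both day 7 lower bounds lay above that RPM at 3225 gained sites, or 13.9%, with at least 24 untreated and 22 treated reads. This is a higher cut on the counts that chose the sites and not a test. At the other gained sites the intervals would overlap in at least 1 day 7 library if the undifferentiated count was 4, the largest that could go unlisted.

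The reverse rule gives the scale of turnover between lists. Lost sites, with 10 or more reads undifferentiated and no row in either day 7 list, numbered 26381, or 2.72% of listed sites. The rules were not equally strict. A gained site had to reach 10 reads in both day 7 libraries and a lost site in 1 library. In turn, a lost site had to be unlisted in both day 7 libraries and a gained site in 1 library. The libraries also differed in depth. The numbers therefore do not show whether gain or loss was the more common.

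Promoters, taken as 1 kb on either side of an annotated transcription start site, held 2754 gained sites, or 11.9% (11.5 to 12.3%). Among sites listed in all 3 lists the share was 6.32% (6.26 to 6.38%), and among lost sites 5.82% (5.55 to 6.11%). The gained share stood above both and below that of all reference CCGG motifs, 14.5%. The set nearest to the gained sites, the 44503 sites in all 3 lists with under 10 undifferentiated reads and 10 or more in both day 7 libraries, had 8.56% (8.31 to 8.83%) in promoters. Read the other way, 3.15% of the 87542 listed promoter sites were gained against 2.32% of listed sites outside promoters, and 1.75% of listed promoter sites were lost against 2.82% outside.

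The rest of the gained sites lay mostly in introns (40.3%, against 44.6% of sites in all 3 lists) and in distal intergenic sequence (38.8% against 39.3%). Exons held 6.37% of gained sites and 3′ UTRs 2.21%. A further 0.332% followed a gene end by at most 300 bp, and 0.134% fell in 5′ UTRs beyond promoters. Repeats marked by soft-masking held 18% of gained sites, 13.3% of sites in all 3 lists and 17.9% of lost sites. By chromosome, the gained share of listed sites ran from 2.29% on chromosome 8 to 2.58% on chromosome 16.

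CpG content separated the groups further. In windows of 500 bp, a high class has a CpG observed-to-expected ratio above 0.75 and GC content above 55%, and a low class has a ratio below 0.48. High CpG windows held 563 gained sites, or 2.43% (2.24 to 2.63%), against 0.265% (0.253 to 0.277%) of sites in all 3 lists and 0.182% (0.137 to 0.241%) of lost sites. The nearest set, with few undifferentiated reads, had 0.789% (0.711 to 0.875%), so part of the contrast was shared by sites that undifferentiated cells did list. Of the 14747 listed sites in high CpG windows, 3.82% were gained and 0.325% were lost. Among all listed sites 1.52% lay in high CpG windows, and among all reference CCGG motifs 6.05%. Even so, 86.5% of gained sites lay in low CpG windows, against 93.9% of sites in all 3 lists and 80.6% of reference motifs.

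Promoter share fell with depth up to 49 reads. It was 13.9% (13.4 to 14.5%) where the lower day 7 count was 10 to 14, 11% (10.2 to 11.9%) at 15 to 19, 8.02% (7.19 to 8.94%) at 20 to 29 and 5.54% (4.4 to 6.97%) at 30 to 49. The share in high CpG windows fell from 3.17% to 0.163% over the same range. The 79 sites with 50 or more reads had 6.33% (2.73 to 14%) in promoters and 3.8% (1.3 to 10.6%) in high CpG windows, the Gm42418 sites below among them. At the deeper gained sites the promoter share was therefore near that of the comparison sites. Among the 3225 sites with separated counting bounds, which amount to a higher cut on the same counts, it was 6.95% (6.12 to 7.88%).

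The bases around the motif differed between the groups. G followed CCGG or C preceded it at 69.3% (68.7 to 69.9%) of gained sites, 52.5% (52.4 to 52.6%) of sites in all 3 lists and 45% (44.4 to 45.6%) of lost sites. CCCGGG, with both, made up 19.3% of gained sites against 9.22% of sites in all 3 lists and 5.55% of lost sites. In the nearest set the shares were 65.8% (65.3 to 66.2%) and 16.6% (16.3 to 17%), so these flanks were common to sites with few undifferentiated reads and not particular to gained sites. Of listed CCCGGG sites 4.63% were gained and 1.52% lost, while of listed sites with neither base 1.59% were gained and 3.24% lost. The same order held at sites the rule did not use: in all 3 lists, the median log2 ratio of untreated to undifferentiated RPM was -0.15 at sites with 1 of these bases and -0.38 at sites with neither. Outside promoters, in low CpG windows and with no other CCGG within 32 bp, G followed or C preceded the motif at 71.1% of gained sites and 52.8% of sites in all 3 lists. Flanking sequence thus moved with gain and loss across the libraries, and its part in the gained sites was not tested.

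GC content of the 30 bp around the site moved with gain as well. Gained sites made up 7.62% (7.32 to 7.93%) of listed sites under 40% GC, 1.63% (1.59 to 1.67%) at 50 to 60% GC and 3.86% (3.75 to 3.98%) at 70% GC or more, so that both extremes stood above the middle. At 60 to 70% GC, 2.8% (2.63 to 2.99%) of listed promoter sites and 1.64% (1.59 to 1.68%) of sites outside promoters were gained. The intervals were also apart at 50 to 60% GC, with 2.24% (2.06 to 2.43%) in promoters and 1.59% (1.54 to 1.63%) outside. At 40 to 50% GC the shares were 3.67% and 3.6%, and at 70% or more 4.12% (3.88 to 4.38%) and 3.78% (3.65 to 3.91%), with overlapping intervals. Under 40% GC the promoter share was the lower, 6.64% (5.34 to 8.24%) against 7.66% (7.35 to 7.98%), again with overlap. Sites in all 3 lists, which the rule did not use, also differed by GC. Their median log2 ratio of treated to undifferentiated RPM was 0.38 under 40% GC, -0.74 at 50 to 60% and -0.27 at 70% or more. For untreated to undifferentiated RPM it was -0.085, -0.26 and -0.12. Lost sites made up 1.74%, 3.2% and 1.23% of listed sites in these ranges. The GC pattern was thus not particular to gained sites, and its part in them or in the promoter share was not tested.

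Most gained sites stood alone. Joined wherever gaps were 1 kb or less, they formed 20691 single sites, 1129 pairs, 74 groups of 3, 7 groups of 4 and 1 group of 7. In all, 2515 gained sites, or 10.8% (10.4 to 11.2%), had another gained site within 1 kb, against 3.28% (3.07 to 3.5%) of lost sites. The gained share was 6% (5.6 to 6.44%) after thinning to the undifferentiated number of mapped reads. With a minimum of 20 reads it was 3.29% (2.83 to 3.82%), near the share of lost sites. Among gained sites with separated counting bounds it was 2.45% (1.97 to 3.04%), so the contrast with lost sites depended on the counts required. Among the much denser sites of all 3 lists 59.7% had another such site within 1 kb.

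Much of this nearness lay within the length of a fragment. Another gained site stood within 10 bp at 3.9% of gained sites, against 0.55% of sites in all 3 lists and 0.258% of lost sites. Of 454 neighbouring gained pairs at most 10 bp apart, 79.7% had the same untreated count and 79.3% the same treated count. Among such pairs of sites in all 3 lists these shares were 77.5% and 79.4%, so equal counts were not particular to gained pairs. Whether such counts came from shared reads was not tested. At distances above 100 bp and up to 1000 bp, 7.23% of 484 pairs had the same untreated count. Close pairs were listed less often in undifferentiated cells: of 35431 reference CCGG pairs at most 10 bp apart, both sites were listed for 8.54% undifferentiated, 17.8% untreated and 18.1% treated. Whether this difference between the lists shaped the gained pairs was not tested.

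Beyond 32 bp, the neighbourhood of gained sites was mixed. A further CCGG motif lay between 32 bp and 1 kb away at 17456 gained sites. At 46.4% (45.6 to 47.1%) of these all such motifs were listed in undifferentiated cells, and at 16.2% (15.7 to 16.8%) none was. The corresponding values were 57% (56.8 to 57.1%) and 13.1% (13 to 13.2%) around sites in all 3 lists. Of the listed neighbours of gained sites 3.14% (2.98 to 3.31%) were themselves gained, against 2.53% (2.5 to 2.56%) around sites in all 3 lists. The 24402 neighbours listed in all 3 lists, which the rule did not use, were shallower than sites away from gained and lost sites. Median counts were 27 against 31 undifferentiated and 33 against 38 untreated. The change in the untreated library was near that elsewhere. The median log2 ratio of untreated to undifferentiated RPM was -0.22 at these neighbours, against -0.24 for sites away from gained and lost sites. For treated to undifferentiated RPM these medians were -0.53 and -0.62, and at promoter sites -0.31 and -0.53.

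The 10 largest clusters held 41 gained sites, and in 6 of them no CCGG site of the span was listed in undifferentiated cells. Gained sites were unlisted there by rule, and the spans at Fbxo31, Gm42418 and Psma6 held no other CCGG motif. In the groups nearest to Rb1cc1 and Slco6d1 the other motifs had no row in any list. At Tmem198 the only other motif with a row had 10 reads, in the untreated library. The rule thus largely fixed this count, which does not show that these spans were unmethylated before differentiation. The deepest group of 4, at chr1:6150999-6151212, lay in intergenic sequence 63436 bp from the nearest protein-coding start, that of the autophagy gene Rb1cc1. Its first pair had 44 untreated and 61 treated reads at each site, and its second pair 14 untreated and 22 and 21 treated reads. The equal counts fall on sites 11 bp apart, and the span begins and ends with the same run of bases, as its plus-strand sequence shows with the gained CCGG in capitals.
chr1:6150999-6151212: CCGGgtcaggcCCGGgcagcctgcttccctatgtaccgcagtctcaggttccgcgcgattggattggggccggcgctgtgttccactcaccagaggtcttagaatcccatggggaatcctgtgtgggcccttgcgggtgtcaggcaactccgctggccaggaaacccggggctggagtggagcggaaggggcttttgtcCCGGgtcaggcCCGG

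A further intergenic group of 4 lay at chr1:98401708-98402164, 18963 bp from the start of Slco6d1, a member of the organic anion transporter family. Its untreated counts were 37, 15, 15 and 14 and its treated counts 14, 19, 19 and 22. Another, at chr8:121552120-121552194, fell in a 3′ UTR at Fbxo31, which encodes an F-box protein, with 14, 14, 11 and 11 untreated and 16, 16, 17 and 17 treated reads. Here again neighbours carried the same counts.

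At Lrrc4, a synaptic adhesion gene that overlaps Snd1, the group at chr6:28830418-28831496 had 14, 14, 11 and 10 untreated reads and 12, 12, 16 and 15 treated reads. A site among them that undifferentiated cells listed with 32 reads had 115 untreated and 63 treated reads, and a second, with 37 undifferentiated reads, had no row on day 7. Gain and loss therefore stood within 1079 bp at Lrrc4. At chr1:75479568-75479836 the same 4 gained sites served the divergent starts of Tmem198, which encodes a membrane protein, and Chpf, which encodes a chondroitin polymerising factor. They had 13, 17, 13 and 13 untreated and 11 treated reads each. At Parp3, an ADP-ribosyltransferase of DNA break repair, the group at chr9:106475399-106476185 had 18, 10, 10 and 12 untreated and 11, 10, 10 and 10 treated reads.

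The group at chr2:174284751-174286387 lay at Nespas, the antisense transcript of the imprinted Gnas locus. Its 4 sites had 13, 13, 10 and 13 untreated and 13, 11, 10 and 11 treated reads. Other sites of the span were listed too, 2 of them in undifferentiated cells with 5 and 6 reads, so undifferentiated reads there were few, while treated counts reached 19 at a site outside the rule.

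The clusters at Gm42418 and Psma6 each had 3 sites. At Psma6, which encodes an alpha subunit of the proteasome core, the sites at chr12:55398815-55398848 had 38 reads each in both day 7 libraries. Whether these equal counts came from shared reads was not tested. Gm42418 is a noncoding gene annotated over a ribosomal RNA repeat unit, which the genome holds in many copies.

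Genes were next counted by the sites near their starts. Of the 16040 autosomal protein-coding genes with a listed CCGG site within 1 kb of a start, 1730 had a gained site there (10.8%), and 781 had a lost site (4.87%). Over genes of any type the gained count was 2714 of 33504 (8.10%). Only 289 protein-coding genes had 2 or more gained sites near a start, 41 had 3 or more and 6 had 4.

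Those 6 were Tacc2, Chrdl2, Lrrc4, Chpf, Tmem198 and Parp3. Tacc2, which encodes a coiled-coil protein of the centrosome, had 3 sites within 12 bp at an internal start (chr7:130692742, chr7:130692747 and chr7:130692753) with 44, 45 and 45 untreated and 22 treated reads each, and another at chr7:130645324 with 21 and 16 reads. Its treated counts at the internal start were under those of the untreated library, unlike the median gained site. Chrdl2, a secreted BMP antagonist, had a pair 121 and 131 bp into the gene with 14 untreated and 23 treated reads at each site, beside a site that rose in count from 13 undifferentiated reads to 36 and 41. Its second pair, 15 and 27 bp past a downstream start, had 19 untreated reads at each site and 17 and 11 treated reads.

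Other genes among those with most gained sites had 3 near a start. Sv2b, a synaptic vesicle protein, had 28, 11 and 18 untreated and 33, 15 and 25 treated reads. Klc2, a kinesin light chain, had 16, 15 and 22 untreated and 16, 16 and 25 treated reads. These genes were ranked by site number, and no test of function was made.

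Eea1, a tether of early endosomes, had a pair 163 and 151 bp upstream of its start with 18 untreated and 20 treated reads at each site, and another site 643 bp into the gene with 14 and 16 reads. None of its CCGG sites near the start was listed in undifferentiated cells. Mtmr6, a phosphoinositide phosphatase, was also unlisted there in undifferentiated cells and had 22, 23 and 20 untreated and 14, 16 and 16 treated reads within 51 bp of a start. Lmo1, a LIM-only cofactor of transcription, had a pair with 20 untreated and 17 treated reads at each site and another site with 17 and 13 reads.

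Fgf4, which encodes a growth factor made by embryonic stem cells, had 3 gained sites 681, 863 and 904 bp into the gene. Their counts were 13, 15 and 25 untreated and 13, 17 and 16 treated, and no CCGG site within 1 kb of the start was listed in undifferentiated cells. The motifs closest to the Fgf4 start, in a high CpG window, had at most 6 reads, in the treated library alone. The 30 bp around the 3 gained sites, with CCGG in capitals (plus strand, GRCm38.p6), are the following.
Fgf4 chr7:144862054-144862083: gacttgagggccaCCGGtagacaggagatg
Fgf4 chr7:144862236-144862265: tctggagctctctCCGGtgcagcgaggcgt
Fgf4 chr7:144862277-144862306: tcggagtggccagCCGGttcttcgtggcca

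Pou5f1, which encodes the pluripotency factor Oct4, had gained sites 672 bp upstream of its start and 157 and 626 bp into the gene (chr17:35505346, chr17:35506175 and chr17:35506644). They had 21, 13 and 10 untreated and 18, 19 and 12 treated reads. A site 209 bp upstream, outside the rule because undifferentiated cells listed it with 6 reads, had 74 untreated and 34 treated reads. Every listed site near the Pou5f1 start but 1, at which the untreated library had 6 reads, was thus at 6 reads or unlisted in undifferentiated cells and at 10 or more on day 7 in both libraries.

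Gene lists were read against 2 shares: 10.8% of protein-coding genes with a gained site, and 3.15% of listed promoter sites gained. Of 34 pluripotency genes with a listed site near a start, 6 had a gained site (17.6%, 8.35 to 33.5%), and 11 of their 126 listed sites were gained (8.73%, 4.94 to 15%), some of them close neighbours. Besides Fgf4 and Pou5f1, the TGF-beta family gene Gdf3 had a site with 20 untreated and 16 treated reads. Tet2, which encodes a methylcytosine dioxygenase, had a pair 9 bp apart, nearer to the start of the noncoding Gm42567, at chr3:133545010 and chr3:133545019 with 12 untreated and 17 treated reads at each site. Sall4 had a site 19 bp upstream of a start with 15 and 12 reads, and Prdm14 a site with 11 and 11 reads. Among the 6 genes whose enhancers the study assayed singly, Sall4 alone had a gained site within 1 kb of a start (16.7%, 3.01 to 56.4%), 1 of 29 listed sites (3.45%, 0.611 to 17.2%).

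Of 57 germline genes, 10 had a gained site (17.5%, 9.82 to 29.4%), and 11 of 292 listed sites were gained (3.77%, 2.12 to 6.62%), near the share of all promoter sites. Mael, which acts in the piRNA pathway, had 18 and 10 untreated and 20 and 18 treated reads at its gained sites. Sohlh2, a germ cell transcription factor, had 16 and 34 reads in the untreated and treated libraries, Hormad1, a protein of the meiotic chromosome axis, had 17 and 16, and Slc25a31, the testis ADP/ATP carrier, had 24 and 16.

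Of 33 imprinted genes, 9 had a gained site (27.3%, 15.1 to 44.2%), and 15 of 229 listed sites were gained (6.55%, 4.01 to 10.5%). Nespas and Gnas shared a site, which may have been counted for both genes. Gnas also had a site 118 bp past another of its starts with 27 untreated and 25 treated reads. Slc38a4, a paternally expressed amino acid transporter, had the deepest of them, chr15:97019224 with 57 untreated and 47 treated reads, and a second site with 15 and 19. Around the same start, Slc38a4 sites were listed in undifferentiated cells with 28, 36 and 39 reads, so the gained sites stood beside methylated ones. Cdkn1c, a maternally expressed inhibitor of cyclin-dependent kinases, had a pair 6 bp apart with 16 reads at each site in both libraries.

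Of 38 Hox genes, 7 had a gained site (18.4%, 9.22 to 33.4%), and 9 of 275 listed sites were gained (3.27%, 1.73 to 6.1%). Hoxc6 had 12 and 16 untreated and 22 and 25 treated reads, and Hoxa10 had 18 and 13 untreated and 14 and 27 treated reads. Hoxd3 had a site with 19 reads in each library, and Hoxd12 a site with 31 untreated and 16 treated reads. Of 31 genes of neural regulators, 4 had a gained site (12.9%, 5.13 to 28.9%), and 4 of 198 listed sites were gained (2.02%, 0.788 to 5.08%). These were Dbx1 (27 untreated and 50 treated reads), Nkx2-2 (19 and 17), Neurod2 (12 and 11) and Lhx2 (10 and 34). Of 17 endoderm regulators, 1 had a gained site (5.88%, 1.05 to 27%), and 2 of 99 listed sites were gained (2.02%, 0.556 to 7.07%). Of 13 trophoblast genes, Hand1 alone had a gained site, with 18 reads in each library (7.69%, 1.37 to 33.3%), or 1 of 81 listed sites (1.23%, 0.218 to 6.67%). All 4 gene intervals include the share of all protein-coding genes, and all 4 site intervals that of all promoter sites.

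Of 20 genes of the retinoic acid pathway, 3 had a gained site (15%, 5.24 to 36%), and 3 of 124 listed sites were gained (2.42%, 0.826 to 6.87%), below the share of all promoter sites but with an interval that includes it. Cyp26a1 and Cyp26c1, enzymes that break retinoic acid down, had 18 and 17 untreated and 20 and 16 treated reads, and the receptor gene Rxrg had 12 and 18 reads.

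Of 13 genes for DNA methylation enzymes and readers, 3 had a gained site (23.1%, 8.18 to 50.3%), and 4 of 61 listed sites were gained (6.56%, 2.58 to 15.7%). Besides Tet2 these were Dnmt3l, the cofactor of the de novo methyltransferases, with 17 untreated and 30 treated reads 715 bp past a start and nearer to that of Aire, and Mbd1, a methyl-CpG binding protein, with 11 and 10 reads. Of 19 genes of LSD1 complexes, 2 had a gained site (10.5%, 2.94 to 31.4%) and 3 of 83 listed sites were gained (3.61%, 1.24 to 10.1%): Mta1, a NuRD subunit, with 10 reads at both sites of a pair in each library, and Phf21a with 11 and 10. The ribosomal protein genes, a list of housekeeping promoters, had gained sites at 5 of 44 (11.4%, 4.95 to 24%) and at 5 of 122 listed sites (4.1%, 1.76 to 9.24%). Rpl18 had 19 untreated and 21 treated reads at a site 200 bp from its own start and 31 bp from that of Sphk2, a sphingosine kinase gene. Rpl13 had 15 and 13, Rps21 had 13 and 12, and Rpl30 had 11 and 16.

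The 10 deepest gained sites were ranked by the lower of their day 7 counts. The 3 at Gm42418 (chr17:39846613, chr17:39846619 and chr17:39846623) had 76, 75 and 64 untreated and 271, 152 and 136 treated reads. Counts there were higher in the treated library, and 18 of the 26 other motifs within 1 kb of the first site were listed in undifferentiated cells, with up to 402 reads. The other 7 lay outside promoters and in low CpG windows, as did 88.1% and 86.5% of all gained sites. They had 69 to 97 untreated and 65 to 76 treated reads. An intergenic site at chr2:44551293, 205144 bp from the start of Gtdc1, had 97 untreated and 72 treated reads, at least 16.8-fold and 13.6-fold higher in RPM than the 4 reads that could go unlisted in undifferentiated cells. An intergenic site at chr5:129214719, 117962 bp from Adgrd1, had 81 and 75 reads, and all 6 other motifs within 1 kb were listed in all 3 libraries.

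An AW121686 exon site, chr15:82988943, had 73 untreated and 68 treated reads. An intron site of Sfi1, chr11:3138542, had 72 and 73, an intergenic site 13904 bp from Ier5l, chr2:30460315, had 71 and 76, and an intron site of Ttc28, chr5:110954314, had 69 and 75. The last 3 lay in soft-masked repeats, which held 18% of all gained sites. An intergenic site at chr1:76667770, 847318 bp from Epha4, had 70 and 65 reads. G followed or C preceded CCGG at 9 of the 10 sites, against 69.3% of all gained sites. The 30 bp around the 7 sites away from Gm42418 are the following (plus strand, GRCm38.p6, CCGG in capitals).
chr2:44551280-44551309: gattgggaatctcCCGGgagatacacctgg
chr5:129214706-129214735: ttttggtgggtccCCGGgccctgagtggat
chr15:82988930-82988959: ccagaaaaatgctCCGGggaaacctgtttc
chr11:3138529-3138558: agttccaggacagCCGGggctatagagaaa
chr2:30460302-30460331: atcaaaaaacaagCCGGgtgtggctttaat
chr5:110954301-110954330: aataaaagaacttCCGGgggagtcaccatc
chr1:76667757-76667786: gcactccttgtccCCGGcaagagaaaaatc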

How the data were processed

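DNA of 3 samples (undifferentiated, untreated day 7 and treated day 7, 1 library each) was cut with FspEI, and the authors aligned the reads to GRCm38. The submitters' processing notes name FastQC 0.11.3 and Bowtie2 2.3.3. The authors deposited, for each library, a list of sites with the read count and the RPM, which is that count per 1000000 mapped reads. Every listed count was 5 or more, and mapped reads were recovered from count and RPM. CCGG rows of CgarType M on the 19 autosomes were joined by position.

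Sites were annotated with GENCODE M21 and the GRCm38.p6 sequence, each to 1 category. Promoters came first, then UTRs (5′ before 3′), other exons, introns and 300 bp past gene ends, with all else called distal intergenic. CpG classes used 500 bp windows with 5 bp overlap. Shares have Wilson intervals and single counts exact Poisson intervals, both at 95%. Functions were tested on simulated data (Python 3.11.15, pandas 2.3.3). No test across conditions was made, since each had 1 library.

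Named were the 10 clusters with most gained sites, the 15 protein-coding genes with most gained sites within 1 kb of a start, the 10 sites with the highest lower day 7 count, and up to 4 genes of each of 12 gene lists; Prdm14 and other genes outside this rule were chosen after their values were seen, as were the flanking bases, GC ranges and close pairs. Some of these are not reported here. Sequences came from the first 3 of these sets. The sites and lists were chosen with earlier results of these data known. Alternatives covered the count minimum, depth, chromosomes, row types, promoter, window and neighbour definitions.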

Additional observations from a re-analysis of the deposited data

Results flagged for a closer look

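A CCAGG site of the treated list lay 33 to 1000 bp away from 62.6% (61.9 to 63.2%) of gained sites, against 31.4% (30.8 to 32%) for the undifferentiated list and for the untreated list. Those 2 lists gave the same number, 7295 gained sites, and for CCTGG all 3 lists gave 7322 (31.6%). Around CCGG sites in all 3 lists the treated CCAGG share was 63.1% and the undifferentiated share 32.2%, so the difference was not confined to gained sites. Numbers this equal between separate libraries leave it unclear whether the CCAGG and CCTGG entries were listed for each library alone. The difference was not tested, and no methylation change is read from it.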

How the results depend on the processing

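Adding the sex chromosomes, taking every CgarType, or leaving out positions with an undifferentiated row of any type kept the number of gained sites within 23197 to 24145 and each share within its interval. With a minimum of 5 reads, 61747 sites were gained, 16.7% in promoters, 23.5% within 1 kb of another and 4.78% in high CpG windows. With a minimum of 20 reads, 5020 were gained, 7.39% in promoters, 3.29% within 1 kb of another and 0.817% in high CpG windows, with medians of 27 untreated and 31 treated reads. Day 7 counts thinned to the undifferentiated number of mapped reads left 12390 sites. Of these, 10.1% lay in promoters, 6% within 1 kb of another and 1.72% in high CpG windows. The number thus depended on the reads kept. This thinning did not equalise reads at CCGG sites. Before it, autosomal CCGG sites held 30438782 reads undifferentiated, 35286914 untreated and 24778383 treated, so the treated library was already the lowest there. Median depths followed the minimum, with 10 untreated and 11 treated reads at a minimum of 5, and were 14 and 17 after thinning.

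Promoters drawn at 3 kb held 21.6% of gained sites (16% of sites in all 3 lists), and 1 kb upstream alone 5.64%. Comparison sites with 10 or more reads in both day 7 libraries had 5.94% in promoters and 0.182% in high CpG windows. Neighbours were found at 9.16% within 500 bp, 13.7% within 2 kb, and 5.09% within 1 kb once those nearer than 32 bp were left out.

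In alternatives chosen after seeing the data, counting sites within 32 bp once gave 11.4% in promoters. The sites whose counting bounds lay apart had 6.95% in promoters, 2.45% within 1 kb of another and 0.496% in high CpG windows. The cause of these shifts was not tested beyond what each setting changes. In every setting with the 1 kb promoter on either side, the promoter share was above the 6.32% of sites in all 3 lists, but with separated bounds its interval reached down to 6.12%. No paired analysis was possible because each condition had 1 library.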

Other observations

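Sites at pluripotency genes were also counted over each whole gene with 10 kb on either side, a distance chosen after values were seen, as were the genes named here. These counts include the 11 gained sites near starts given above. Sites were counted for each gene, and the ranges of Dppa2 and Dppa4 and of Dppa3 and Gdf3 overlap. A listed or lost site in an overlap thus counts for both genes. Of 1200 listed sites at 35 genes, 50 were gained (4.17%, 3.17 to 5.45%) and 24 were lost (2%, 1.35 to 2.96%), against 2.39% gained and 2.72% lost of all listed sites. At the 6 genes with singly assayed enhancers, 8 of 343 were gained (2.33%, 1.19 to 4.53%) and 9 lost (2.62%, 1.39 to 4.91%), near the shares of all listed sites. Of these 343 sites, 193 lay at Esrrb. The assayed enhancers themselves were not located, so these counts do not measure them. There the paper reported by methylation-dependent qPCR a gain in untreated cells that pargyline strongly reduced. Sites with reads in the untreated library alone do not meet the rule used here. Pou5f1 had 7 of its 30 listed sites gained. Besides those near its start, these included chr17:35503403, which lay 2615 bp upstream with 25 untreated and 21 treated reads, and an intron site, chr17:35508187, with 18 and 27. The deepest lay in an exon of the neighbouring gene Tcf19 with 42 untreated and 26 treated reads.

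Tbx3 had 5 gained sites, with 10 to 22 untreated and 13 to 29 treated reads, and Nr5a2 had 4 in its introns, with 14 to 23 untreated and 12 to 31 treated reads. Esrrb had 4 gained and 6 lost sites among 193 listed. A site 13480 bp from the start of Mycn had 70 untreated and 44 treated reads. At Tdgf1, a site 2156 bp from the start had 48 untreated and 10 treated reads, and at Sall4 an intron site, chr2:168761436, had 37 and 10. In all, 20 of the 35 genes had a gained site within this range, and those without included Nanog, Sox2, Klf2, Klf5, Zfp42 and Dppa3.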
